A study of Mus musculus with 1790 samples.

Results

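The enzymes that make and break down cyclic nucleotides and diacylglycerol were followed through cortical neurogliaform cells (NGCs), a type of slow-acting inhibitory interneuron of the upper cortical layers. Genes were taken by symbol, as the adenylyl cyclases (Adcy followed by a number), the phosphodiesterases (Pde and a number), the diacylglycerol kinases (Dgk and a letter), the phospholipases C of the b, d, e, g and h classes, and the protein kinases C (Prkc and a letter). The rule found 68 of 49586 gene symbols over the 4 count tables used, 61 in the table of postnatal day 15 (P15), 57 in that of P30, 55 in that of embryonic stage E14.5 and 68 in the patch-seq table. They comprised 10 adenylyl cyclases, 27 phosphodiesterases, 10 diacylglycerol kinases, 12 phospholipases C and 9 protein kinases C. The symbol rule also takes Pde4dip, which encodes the anchoring protein myomegalin, Pde6d, which encodes a prenyl-binding chaperone, and Pde12, which encodes a mitochondrial RNA nuclease. Pde2a was listed at 0 in each table that holds it, while a second entry named Pde2a.1 carried counts in the E14.5 and patch-seq tables, so Pde2a was treated as uncertain.

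Single cells came from mice of the Htr3a-GFP/Hmx3-Cre;R26tdTOM cross, in which GFP reports Htr3a expression and tdTOM permanently marks cells descended from Hmx3-Cre-expressing cells of the embryonic preoptic area (POA). At P15 and P30, upper-layer somatosensory cortex from pooled brains was sorted into GFP+/tdTOM+ and GFP+/tdTOM- cells and captured on microfluidic chips, and E14.5 GFP+/tdTOM+ POA cells were captured in the same way. For patch-seq, the contents of recorded GFP+/tdTOM+ neurons of P14 to P25 mice were drawn into the pipette. These neurons were taken from all cortical layers and not from the upper layers alone. No group was treated. The NGC groups were tdTOM+ cells with the cell type label Lamp5 Plch2 Dock5 (hereafter Dock5; 36 cells at P15, 76 at P30 and 20 in patch-seq) or Lamp5 Lsp1 (hereafter Lsp1; 33, 35 and 27 cells). The comparison groups were tdTOM- cells with another Lamp5 label (14 and 21 cells at P15 and P30) or a Vip label (63 and 47 cells), and 418 tdTOM+ cells stood for E14.5.

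Each deposited sample was 1 cell and no label tied cells to an animal, so each group was treated as 1 sample and no test of a difference was possible. Levels are CPM, the counts of a gene summed over all cells of a group per 1000000 counts of that group, with exact Poisson 95% intervals, and shares of cells with at least 1 count carry exact Clopper-Pearson 95% intervals where given. Both cover counting error alone, and not the spread between cells or animals. The labels had been transferred from an adult atlas with the same expression values, and Plch2 is part of a label's name, so label differences in these genes are a description and not independent of how the groups were formed.

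Depth was similar in the compared postnatal groups, with medians per cell from 206939 counts in P30 Vip cells to 267282 in P15 Lsp1 cells, and group totals from 4464427 to 19168453 counts. The patch-seq groups differed in depth, with medians of 378451.5 counts in Dock5 cells and 1037400 in Lsp1 cells, and 1 Lsp1 cell held 30.0% of its group's 53198151 counts. The labels were checked against markers. Npy, a neuropeptide of many NGCs, was at 4193 CPM in P15 Dock5 cells and 10384 in P15 Lsp1 cells, Ndnf was at 3923 and 991, and Vip was at 7957 in the Vip cells. The gene Lsp1 itself was at 13.0 CPM in P15 Dock5 cells and 14.0 in P15 Lsp1 cells, and did not separate the sorted P15 groups that carry its name, whereas in patch-seq it was at 5.02 CPM in Dock5 and 53.6 in Lsp1 cells.

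Cyclic AMP is made from ATP by adenylyl cyclases, most of them membrane enzymes that G proteins turn on or off and that differ in their response to calcium, and phosphodiesterases end the signal. On the lipid side, phospholipases C cut a membrane phosphoinositide into IP3, which releases stored calcium, and diacylglycerol, which activates most protein kinases C until diacylglycerol kinases convert it to phosphatidic acid. In interneurons these routes carry the effects of serotonin, acetylcholine, noradrenaline and neuropeptides on excitability and transmitter release.

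Of the 68 genes, 45 reached 20 CPM in at least 1 of the 8 main postnatal groups (Dock5, Lsp1, other Lamp5 and Vip cells at both ages), namely 7 adenylyl cyclases, 18 phosphodiesterases, 9 diacylglycerol kinases, 6 phospholipases C and 5 protein kinases C. A core of 20 reached it in every main group at both ages. It held 3 adenylyl cyclases (Adcy1, Adcy3, Adcy5), 5 phosphodiesterase symbols (Pde4a, Pde4b, Pde4d, Pde4dip, Pde10a), 5 diacylglycerol kinases (Dgkb, Dgke, Dgkg, Dgkq, Dgkz), 2 phospholipases C (Plcb1, Plcb4) and 5 protein kinases C (Prkca, Prkcb, Prkce, Prkci, Prkcz). A further 18 stayed under 20 CPM in every postnatal group, patch-seq included, among them the photoreceptor genes Pde6a, Pde6b, Pde6c, Pde6g and Pde6h, the soluble cyclase Adcy10, and the protein kinases C Prkcd, Prkch and Prkcq. Adcy7, Plcb2, Plcd1 and Plce1 reached 20 CPM outside the 8 main groups alone.

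**Figure D1:**
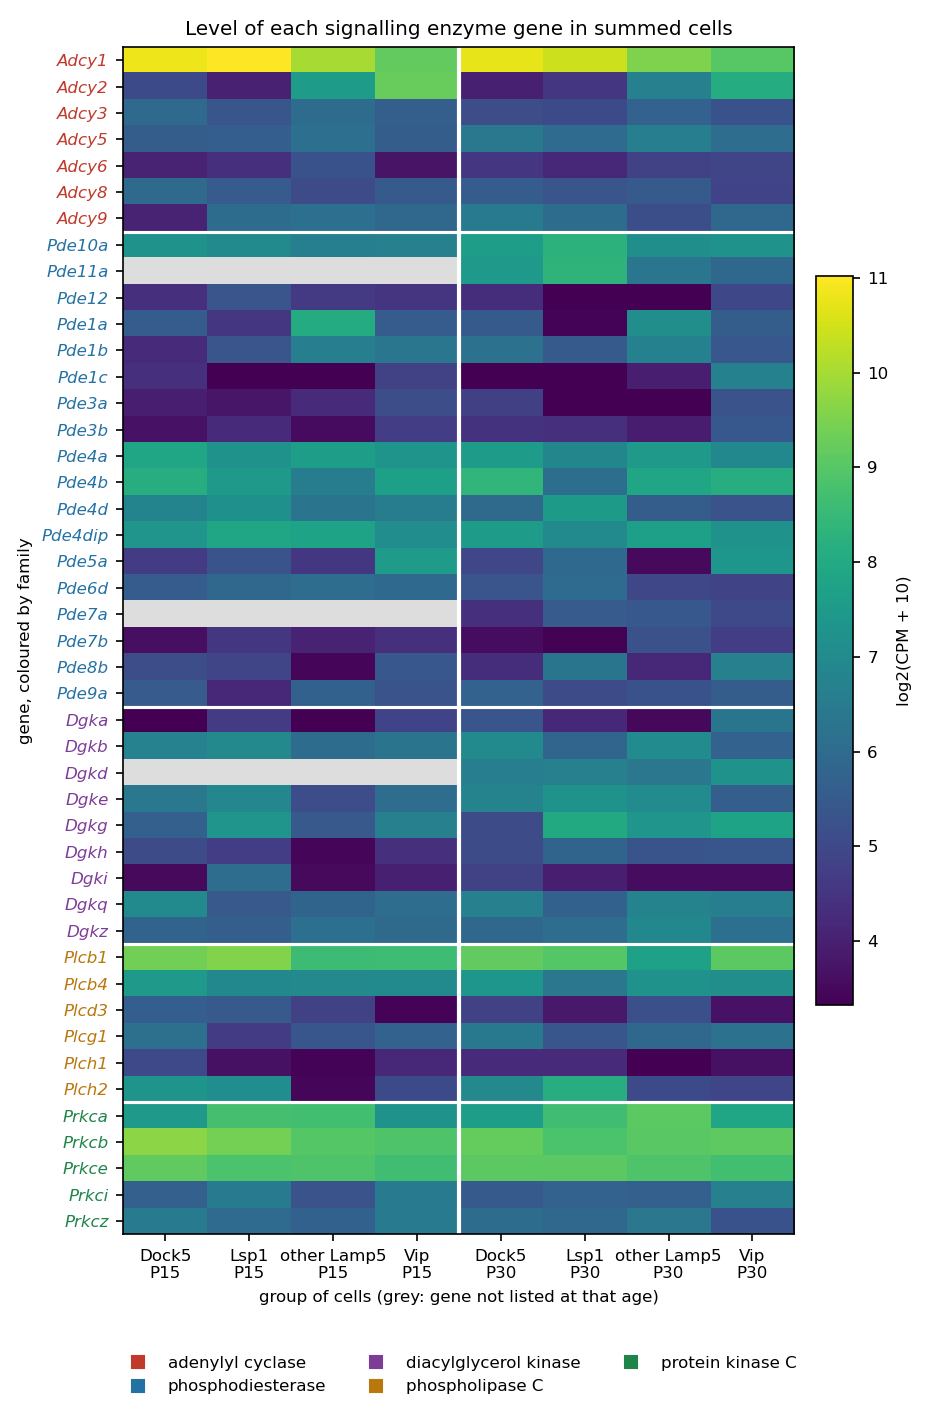
Level of the 45 genes that reached 20 CPM in at least 1 of the 8 main groups, as the log2 of CPM plus 10 (colour); columns are the summed tdTOM+ Dock5 and Lsp1 and tdTOM- other Lamp5 and Vip cells at P15 and P30, genes run down by family, and grey marks a gene not listed at that age. Adcy1, Prkcb and Plcb1 are bright in every column, whereas Adcy2 and Pde5a are bright in the Vip columns and Plch2 in the Dock5 and Lsp1 columns.

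Most of these transcripts were caught in some cells of a group and missed in others. Across the P15 levels of at least 20 CPM, the median share of cells with a count was 63.6%, and the cell with the most counts held a median of 25.8% of the group's counts for that gene. At P30 the corresponding medians were 52.4% and 23.2%. In 12 of 122 such levels at P15 and 22 of 140 at P30, 1 cell held at least 50% of the counts.

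The first comparison asked how NGCs, as Dock5 and Lsp1 cells summed, differ from Vip interneurons, the other large class of Htr3a-expressing cells. NGCs had more Adcy1, the calcium-stimulated adenylyl cyclase, and more Plch2, a calcium-sensitive phospholipase C. Vip cells had more Adcy2, a cyclase activated by G protein beta-gamma subunits, and more Pde5a, the phosphodiesterase that hydrolyses cyclic GMP. These 4 genes were the ones at least 2-fold apart in the same direction at both ages, out of 34 that reached 20 CPM at both ages. They make 11.8% of the 34, against 6.44% of all genes.

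Adcy1 (ENSMUSG00000020431, chromosome 11 from 7063489 to 7178506 on the plus strand, GRCm38) was at 1796 CPM (1771 to 1822) in P15 Dock5 cells, 2068 CPM (2040.0 to 2097) in P15 Lsp1 cells, 1021 CPM (992 to 1051) in other Lamp5 cells and 572 CPM (561 to 583) in Vip cells. At P30 it was at 1703, 1370.0, 737 and 506 CPM in the same order. Its counts did not rest on a few cells: every P15 NGC had a count, with single cells from 422 to 4721 CPM and a median of 1863, whereas Vip cells ran from 0 to 2868 with a median of 398. The ranges of single cells overlapped, and the medians were far apart. The log2 fold of NGC over Vip, computed after adding 10 CPM to both levels, was 1.74 at P15 and 1.63 at P30.

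Adcy2 (ENSMUSG00000021536, chromosome 13 from 68620043 to 68999541 on the minus strand) lay the other way round. It was at 22.9 CPM (20.1 to 26.0) in P15 Dock5 cells and 6.40 CPM (4.91 to 8.21) in P15 Lsp1 cells, against 179 CPM (167 to 192) in other Lamp5 and 587 CPM (576 to 598) in Vip cells. At P30 the levels were 6.10, 13.2, 91.7 and 260.4 CPM. The median P15 NGC stood at 3.08 CPM and the highest at 439, while Vip cells had a median of 419 and a highest value of 2390.2. Other Lamp5 cells thus lay between NGCs and Vip cells for both cyclases at P15 and at P30. At P30 other Lamp5 cells owed 75.1% of their Adcy2 counts to 1 cell. The log2 folds of NGC over Vip were -4.58 and -3.87, and the share of cells with a count was 30.6% (22.2% to 40.1%) in P30 NGCs and 70.2% (55.1% to 82.7%) in P30 Vip cells.

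**Figure D2:**
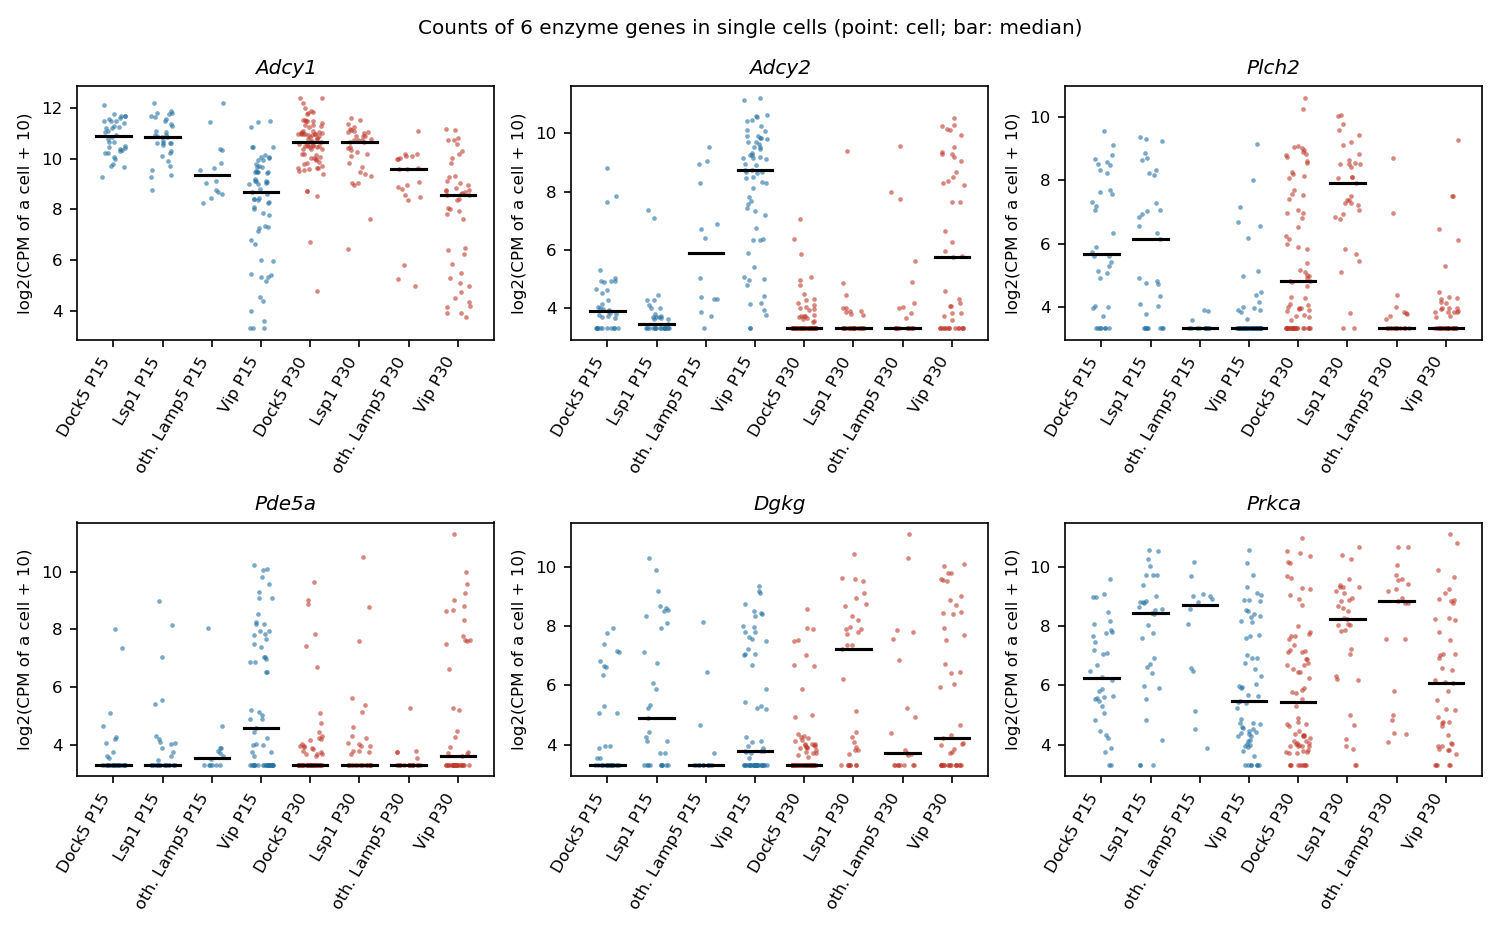
Level per cell, as the log2 of CPM plus 10 (y axis), of Adcy1, Adcy2, Plch2, Pde5a, Dgkg and Prkca in the 8 main groups at P15 (blue) and P30 (red); each point is 1 cell and each bar the median over cells. The NGC bars of Adcy1 lie above the Vip bars and those of Adcy2 below them at both ages, and points of every gene overlap between groups.

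Plch2 (ENSMUSG00000029055, chromosome 4 from 154983115 to 155056784 on the minus strand) was at 147 CPM (140.2 to 155) in P15 Dock5 and 126 CPM (119 to 134) in P15 Lsp1 cells, against 23.1 CPM (20.9 to 25.5) in Vip cells and 0.672 CPM (0.139 to 1.96) in other Lamp5 cells. At P30 the Dock5 level was 114 CPM, the Lsp1 level 267, the other Lamp5 level 23.3 and the Vip level 20.7. Of the other Lamp5 counts at P30, 79.0% came from 1 cell. Although the atlas named the Dock5 label after Plch2, the P30 level was higher in Lsp1 than in Dock5 cells. The log2 folds of NGC over Vip were 2.15 and 2.52. After each cell was thinned to 1 depth, 76.6% of P15 NGCs and 24.1% of P15 Vip cells had a Plch2 count (5 and 9 shallower cells left out), compared with 78.3% and 27.0% before thinning.

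Pde5a (ENSMUSG00000053965, chromosome 3 from 122728947 to 122859374 on the plus strand) was at 22.0 CPM (20.0 to 24.2) in P15 NGCs and 182 CPM (176 to 189) in P15 Vip cells, and at 31.7 CPM (29.6 to 33.8) and 154 CPM (147 to 162) at P30. It was carried by part of the Vip cells: 63.5% at P15 and 51.1% at P30 had a count, the upper quartiles were 204 and 187 CPM, and the medians were 13.9 and 2.38 CPM. The log2 folds of NGC over Vip were -2.59 and -1.98.

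The promoters of both cyclases and of Plch2 are shown here, because these genes carried the NGC and Vip difference on opposite sides, as windows of 300 bases, from 250 before to 50 after the annotated start (RefSeq, GRCm38.p6), with CG pairs in capitals. The windows are Adcy1 (chr11:7063183-7063482, plus strand), Adcy2 (chr13:68999492-68999791, minus strand) and Plch2 (chr4:155019379-155019678, minus strand).
Adcy1: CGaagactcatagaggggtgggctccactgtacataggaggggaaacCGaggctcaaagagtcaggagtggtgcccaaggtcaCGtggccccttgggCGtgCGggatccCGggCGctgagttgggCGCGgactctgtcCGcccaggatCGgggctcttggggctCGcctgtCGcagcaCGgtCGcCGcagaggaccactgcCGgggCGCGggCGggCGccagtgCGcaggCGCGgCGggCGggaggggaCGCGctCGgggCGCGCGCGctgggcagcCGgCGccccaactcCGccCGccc
Adcy2: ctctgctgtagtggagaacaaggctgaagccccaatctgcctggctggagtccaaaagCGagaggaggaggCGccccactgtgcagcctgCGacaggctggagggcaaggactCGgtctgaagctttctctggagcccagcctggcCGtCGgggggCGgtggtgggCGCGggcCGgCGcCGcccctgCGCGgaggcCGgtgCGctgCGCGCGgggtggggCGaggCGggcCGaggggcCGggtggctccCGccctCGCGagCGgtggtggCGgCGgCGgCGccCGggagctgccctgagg
Plch2: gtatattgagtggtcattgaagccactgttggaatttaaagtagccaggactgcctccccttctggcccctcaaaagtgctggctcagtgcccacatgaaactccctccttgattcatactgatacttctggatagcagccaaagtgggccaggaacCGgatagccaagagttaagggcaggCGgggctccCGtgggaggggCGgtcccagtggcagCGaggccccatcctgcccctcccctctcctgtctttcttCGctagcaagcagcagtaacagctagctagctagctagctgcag
The Adcy1 window held 37 CG pairs and the Adcy2 window 32, more than 94.4% and 90.5% of the 32851 windows in the RefSeq table, whereas the Plch2 window held 6, near the table's median of 7 (quartiles 3 and 20). The RefSeq table held 2 windows for Plch2, and the one shown, the nearer to the outer start of the annotated gene, lies inside the gene; the outer start was not analysed here. The cyclic AMP response element was searched on both strands as TGACGTCA and as its shorter form TGACG, which the full element contains. The full element was in 588 windows (1.79%) and the shorter form in 6837 (20.8%). Of the 68 genes, 55 matched a window by symbol, and where a gene had several the one nearest its annotated start was read. Of these 55 windows 0 held the full element and 6 (10.9%) the shorter form, and neither form was in the windows printed here. Such a match is a description of these letters and not of a bound site.

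At P15, 4 of the 36 enzymes that reached 20 CPM in NGCs or Vip cells were at least 2-fold higher in NGCs and 4 in Vip cells, against 7.97% and 9.22% of 7816 genes. At P30, 5 of 41 were at least 2-fold higher in NGCs and 8 in Vip cells, against 11.9% and 10.6% of 8545 genes. The median absolute log2 fold was 0.43 for the enzymes and 0.44 for all genes at P15, and 0.60 and 0.52 at P30. The counts were near those of all genes, except toward Vip cells at P30. Among those 8 enzymes, 1 cell held 96.0% of the Vip counts of Pde3b, 51.7% of Dgka and 47.6% of Pde1c. For Adcy2 and Prkci the highest Vip cell held 10.5% and 15.5%.

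Among the other phosphodiesterases, Pde3a, a cyclic AMP enzyme inhibited by cyclic GMP, was at 4.84 CPM in P15 NGCs and 25.5 in P15 Vip cells, but 12.7% of the Vip cells carried it. At P30, 73.4% of its Vip counts came from 1 cell, and without the highest cell of each group its log2 fold went from -0.84 to -0.24, and it was 0.0686 in plate rows 1 to 20. Pde8b, a high-affinity cyclic AMP enzyme, was at 23.1 and 32.4 CPM at P15 and at 30.5 and 91.3 at P30, a log2 fold of -0.36 and then -1.32. Pde1a, which calcium and calmodulin activate, had log2 folds of -0.39 and -0.50, and without the highest cell of each group -0.63 and 0.25. It turned sign to 0.35 in plate rows 1 to 20 at P15 and to 0.29 in rows 21 to 40 at P30. Pde4d and Pde10a lay toward NGCs. Pde4d, a cyclic AMP-specific enzyme, had log2 folds of 0.42 and 1.41 (the latter 0.45 with both sorts pooled), and Pde10a, which takes both cyclic nucleotides, of 0.44 and 0.60.

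Among the diacylglycerol kinases, Dgke, which prefers diacylglycerol with an arachidonate chain, was at 91.0 CPM in P15 NGCs and 57.5 in Vip cells, and at 113 and 40.7 at P30. The calcium-binding kinase Dgkb was at 104 and 67.7, then 93.7 and 43.5 CPM. In P30 Vip cells 79.0% of the Dgkb counts came from 1 cell, and without the highest cell of each group its log2 fold went from 0.96 to 2.17. In plate rows 1 to 20 it was 0.83 at P15 and 0.07 at P30, and in rows 21 to 40 0.0084 and 2.91. The atypical protein kinase C Prkci, which does not respond to diacylglycerol, lay toward Vip cells with log2 folds of -0.36 and -1.07. Without the highest cell of each group the latter was just short of 2-fold, and the P15 value was 0.18 in plate rows 21 to 40. The conventional Prkcb was at 746 CPM in NGCs and 468 in Vip cells at P15, and at 530.0 and 542 at P30, which was under 2-fold at both ages; it was chosen for mention after its values were seen.

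**Figure D3:**
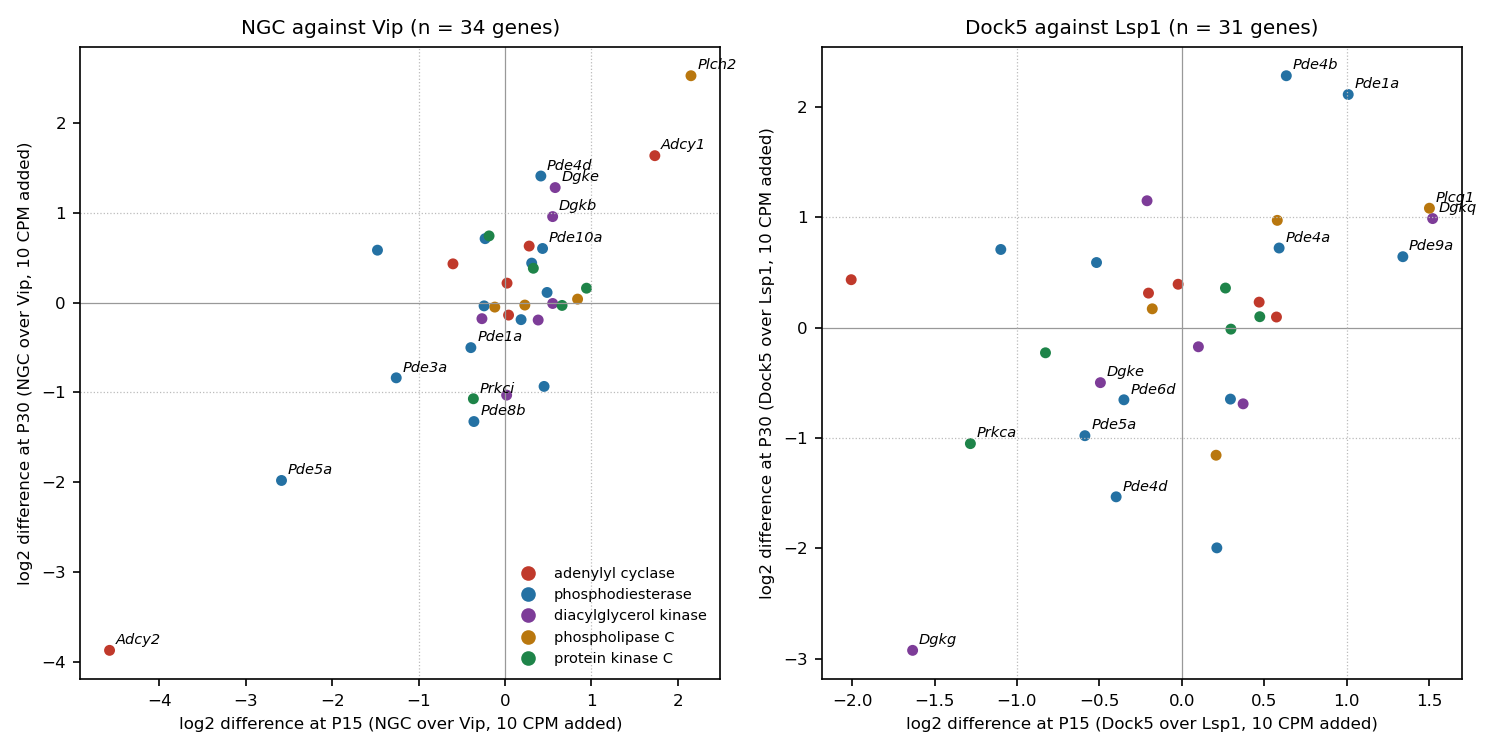
Log2 fold (10 CPM added) at P15 on the x axis against P30 on the y axis, for NGC over Vip (left, 34 genes) and Dock5 over Lsp1 (right, 31 genes); each point is a gene that reached 20 CPM in 1 of the compared groups at both ages, coloured by family, and dotted lines mark 2-fold. Adcy2 lies at -4.58 and -3.87 in the left panel and Dgkg at -1.63 and -2.92 in the right panel, while most points lie inside the 2-fold lines.

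Sort and label varied together in this comparison, since NGCs were tdTOM+ and Vip cells tdTOM-. The Lsp1 and Vip labels also occurred in the other sort. The Dock5 label had 4 tdTOM- cells at P15, not compared here. It did not occur among tdTOM- cells at P30, where 76 of the 111 NGCs carried it. For Dock5 cells sort and label could therefore not be told apart at P30. Adcy1 was at 1808 CPM in 20 tdTOM- Lsp1 cells at P15 and 1933 in 28 at P30, and at 613 in 24 tdTOM+ Vip cells at P15 and 918 in 15 at P30. Adcy2 was at 32.7 and 2.09 CPM in those Lsp1 cells and 649 and 385 in those Vip cells. Between Lsp1 and Vip cells both cyclases thus followed the label in either sort. Plch2 did so at P15, with 112 CPM in tdTOM- Lsp1 and 7.69 in tdTOM+ Vip cells, while at P30 the values were 306 and 152. Pde5a in tdTOM+ Vip cells was at 112 CPM at P15 but 6.91 at P30, below the 25.4 CPM of tdTOM- Lsp1 cells, 61.0% of which came from 1 cell. As a gauge of the spread between cell collections with 1 label, 10 of 34 enzymes at P15 (29.4%, against 22.6% of genes) and 10 of 35 at P30 (28.6%, against 29.2%) were at least 2-fold apart between tdTOM+ and tdTOM- Lsp1 cells. Between the sorts of Vip cells it was 3 of 38 at P15 (7.89%, against 14.9%) and 20 of 45 at P30 (44.4%, against 35.5%).

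Other Lamp5 cells were set against the same Vip cells, so the values below share their reference group with those above. Other Lamp5 cells had more Pde1a and more Prkca than Vip cells, and less Pde5a, Pde8b and Adcy2. Pde1a was at 258 CPM (244 to 274) in other Lamp5 and 37.0 CPM (34.3 to 40.0) in Vip cells at P15, and at 130.3 CPM (121 to 139.8) and 37.9 CPM (34.3 to 41.9) at P30, where 1 Vip cell held 68.0% of the Vip counts, with NGC levels of 25.8 and 23.9 CPM. The conventional protein kinase C Prkca was at 405 and 145 CPM at P15 and at 535 and 227 at P30. Every other Lamp5 cell had a Prkca count at both ages, with medians of 405 and 452 CPM against 33.9 and 57.0 in Vip cells. Log2 folds of other Lamp5 over Vip were 2.51 and 1.55 for Pde1a and 1.42 and 1.20 for Prkca. Prkca was under 2-fold in plate rows 1 to 20 at P15 (0.44) and in rows 21 to 40 at P30 (0.26), and Pde1a in rows 1 to 20 at P30 (0.62). Adcy5, a calcium-inhibited cyclase, had 0.56 and 0.55, under 2-fold at both ages, and its P15 value was -1.71 in plate rows 1 to 20 and 1.35 in rows 21 to 40.

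Pde5a, Pde8b and Adcy2 were at least 2-fold higher in Vip than in other Lamp5 cells at both ages. Pde5a was at 13.7 CPM in other Lamp5 cells at P15, where 1 cell held 83.6% of the counts, and at 1.52 at P30. Pde8b was at 0.896 and 7.95 CPM in other Lamp5 cells against 32.4 and 91.3 in Vip cells. The log2 folds of Adcy2 were -1.66 and -1.41, and the P30 value was -2.82 without the highest cell of each group. Adcy2 was just under 2-fold in plate rows 21 to 40 at P15 (-0.97) and in rows 1 to 20 at P30 (-0.93). At P15, 3 of 33 enzymes were at least 2-fold higher in other Lamp5 cells and 7 in Vip cells, against 10.2% and 15.4% of 7780 genes. At P30, 7 of 43 were higher by that much in other Lamp5 cells and 9 in Vip cells, against 15.8% and 17.8% of 8561 genes. Of the 33 enzymes compared at both ages, 5 were past 2-fold in 1 direction at both (15.2%, against 7.15% of genes).

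Within NGCs, Lsp1 cells had more Dgkg, a calcium-binding diacylglycerol kinase, and more Prkca, while Dock5 cells had more Plcg1, the phospholipase C that receptor tyrosine kinases activate, and more Pde1a. These 4 of the 31 enzymes that reached 20 CPM at both ages (12.9%, against 2.71% of genes) were at least 2-fold apart in the same direction at P15 and P30. Of the 31, 18 had the same sign at both ages. The same share was not computed over all genes, so this count is not read as a result about the enzymes. At P15, 6 of 36 enzymes were at least 2-fold higher in Dock5 cells and 5 in Lsp1 cells, against 9.16% and 8.93% of 7667 genes. At P30, 5 of 35 were higher by that much in Dock5 cells and 6 in Lsp1 cells, against 9.31% and 8.38% of 8353 genes. The median absolute log2 fold was 0.55 for the enzymes and 0.47 for all genes at P15, and 0.69 and 0.46 at P30. In either direction, 30.6% of enzymes at P15 and 31.4% at P30 were past 2-fold, against 18.1% and 17.7% of genes. Between the sorts of Lsp1 cells the shares were 29.4% and 28.6% of enzymes, against 22.6% and 29.2% of genes. Plcg1, Dgkq, Pde9a, Pde6d, Dgki and Pde12 were past 2-fold between those sorts at both ages, and the matching share over all genes was not computed.

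Dgkg (ENSMUSG00000022861, chromosome 16 from 22468461 to 22657221 on the minus strand) was at 41.8 CPM (38.0 to 45.9) in Dock5 and 151 CPM (143 to 158) in Lsp1 cells at P15, and at 23.7 CPM (21.6 to 26.0) and 246 CPM (236 to 256) at P30. Single Dock5 cells ran from 0 to 375 CPM at P30 with a median of 0, and Lsp1 cells from 0 to 1366 with a median of 138. The upper quartile of the Dock5 cells, 6.08 CPM, lay below the Lsp1 median, although the ranges overlapped. The log2 folds of Dock5 over Lsp1 were -1.63 and -2.92. Thinned to 1 depth, 36.4% of P30 Dock5 and 79.4% of P30 Lsp1 cells had a count (10 and 1 shallower cells left out), compared with 43.4% and 77.1% before. The level was not particular to Lsp1 cells, since P30 Vip cells were at 213 and other Lamp5 cells at 151 CPM.

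The Dgkg promoter window (chr16:22657182-22657481, minus strand; same layout and marking as above) is shown because Dgkg had the widest of the 4 differences between the NGC subtypes at both ages.
Dgkg: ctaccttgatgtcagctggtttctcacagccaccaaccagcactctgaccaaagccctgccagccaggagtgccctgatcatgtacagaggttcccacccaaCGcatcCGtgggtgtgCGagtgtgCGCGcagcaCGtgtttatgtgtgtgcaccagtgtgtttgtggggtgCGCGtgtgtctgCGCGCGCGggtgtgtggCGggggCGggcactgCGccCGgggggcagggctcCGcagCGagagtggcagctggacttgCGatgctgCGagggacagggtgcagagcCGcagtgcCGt
It held 22 CG pairs, more than 76.9% of all windows, and neither form of the cyclic AMP response element.

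Prkca (ENSMUSG00000050965, chromosome 11 from 107933387 to 108343928 on the minus strand) was at 167 CPM (159 to 175) in Dock5 and 421 CPM (408 to 434) in Lsp1 cells at P15, and at 184 CPM (178 to 191) and 393 CPM (380.4 to 405) at P30. A count was found in 94.4% of Dock5 and 90.9% of Lsp1 cells at P15, and the medians were 65.4 and 341 CPM at P15 and 33.0 and 295 at P30. The log2 folds were -1.28 and -1.05, and in cells of plate rows 1 to 20 alone -0.89 and -0.38. As the mean over single cells the P30 value was -0.85. At both ages the Lsp1 level was nearer to that of other Lamp5 cells, and the Dock5 level nearer to that of Vip cells. Prkcb, from the same conventional class, was at 811 CPM in Dock5 and 674 in Lsp1 cells at P15 and at 573 and 445 at P30.

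Plcg1 was at 61.6 CPM in Dock5 and 15.3 in Lsp1 cells at P15 (log2 fold 1.5) and at 77.4 and 31.3 at P30 (1.08). The share of cells with a count was 55.6% and 36.4% at P15, and 46.1% and 45.7% at P30, so at the later age a similar share of cells carried it at different levels. In tdTOM- Lsp1 cells it was at 59.6 CPM at P15, 72.8% of it from 1 cell, and 101 at P30. With tdTOM- cells added to each label that had them, the log2 folds were 0.65 and 0.31. The Dock5 label had 4 tdTOM- cells at P15 and did not occur among tdTOM- cells at P30. The P30 value thus pooled the sorts on the Lsp1 side alone. In plate rows 21 to 40 alone the P30 value of Plcg1 was 0.71, under 2-fold. Dgkq, a diacylglycerol kinase without calcium-binding motifs, lay the same way, with 118 and 34.5 CPM at P15 and 93.2 and 42.1 at P30. Its log2 folds were 1.52 and 0.99, the latter just short of 2-fold, and 1.29 at P30 without the highest cell of each group. With the same tdTOM- cells added they were 0.85 and 0.19.

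The phosphodiesterases of Dock5 and Lsp1 cells included Pde4b, a cyclic AMP-specific enzyme. Pde4b was at 266 CPM (257 to 276) in Dock5 and 168 CPM (160.0 to 176) in Lsp1 cells at P15, and at 325 CPM (317 to 333) and 59.0 CPM (54.3 to 64.0) at P30. Its log2 fold of 2.28 at P30 was the largest toward Dock5 cells at that age, against 0.63 at P15. The related Pde4a had 0.59 and 0.72, the latter -0.0916 in plate rows 21 to 40. Pde4d lay toward Lsp1 cells, with -0.40 at P15 and -1.53 at P30. At P30, 44.6% of its Lsp1 counts came from 1 cell, and the log2 fold was -1.06 without the highest cell of each group and -0.70 thinned to 1 depth.

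Pde1a was at 37.1 CPM in Dock5 and 13.4 in Lsp1 cells at P15, and at 35.8 and 0.61 at P30. At P15, 1 Dock5 cell held 66.6% of the counts, and without the highest cell of each group the log2 fold went from 1.01 to 0.26. At P30 it was 2.11 and 1.77 in the same order. In plate rows 21 to 40 alone the P15 value was -1.21, toward Lsp1 cells. In 35 Lsp1 cells at P30, 6 Pde1a counts were found in all. Of the cyclic GMP enzymes, Pde9a had positive log2 folds in all cells (1.34 and 0.64) and Pde5a negative ones (-0.59 and -0.98). For Pde5a 1 cell held 62.1% of the P30 Lsp1 counts, and the log2 fold without the highest cell of each group was -0.23. Their directions turned within parts of the plates, to -0.45 and -0.20 for Pde9a in rows 21 to 40 at P15 and P30 and to 0.44 for Pde5a in rows 1 to 20 at P30. Dgke had log2 folds of -0.49 and -0.50 (at P15 -0.27 without the highest cells), and Pde6d of -0.35 and -0.65. Pde6d also turned sign, to 0.74 in plate rows 1 to 20 at P15 and to 0.19 thinned to 1 depth at P30.

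**Figure D4:**
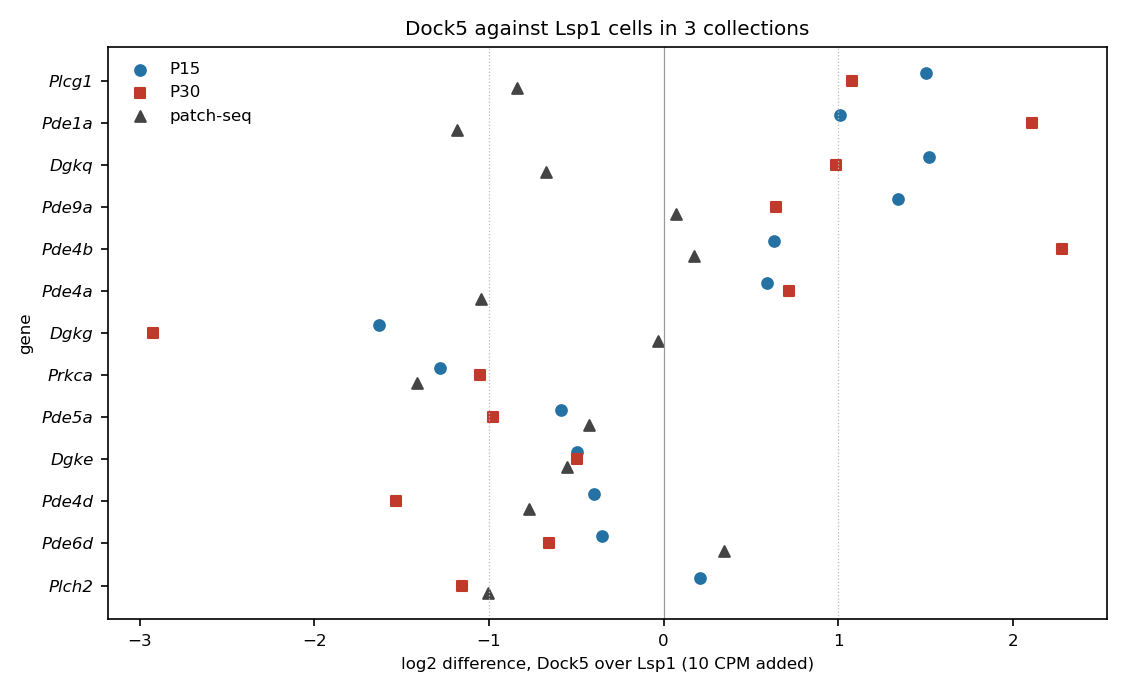
Log2 fold of Dock5 over Lsp1 (10 CPM added) at P15, at P30 and in patch-seq for the 12 enzymes named for the sorted cells and for Plch2, with dotted lines at 2-fold. Dgkg and Prkca lie to the Lsp1 side at both sorted ages, Prkca also in patch-seq, and Pde1a lies on the Dock5 side at P15 and P30 and on the Lsp1 side in patch-seq.

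Patch-seq gave a second collection of Dock5 and Lsp1 cells, labelled by the authors with a classifier trained on sorted P15 and P30 cells and on adult cells. Here Prkca, Adcy5 and Adcy9 had the largest folds toward Lsp1 cells, and Pde8b, Plch1 and Adcy3 toward Dock5 cells. Of 32 enzymes, 2 were at least 2-fold higher in Dock5 cells and 8 in Lsp1 cells, against 8.5% and 9.77% of 7955 genes. Without the deepest Lsp1 cell the counts were 2 and 4, and the shares over all genes were not recomputed. In this comparison the median ratio over genes expressed in both groups was 0.127 on the log2 scale toward Dock5 cells; the values below are relative to total counts and not to that median.

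Prkca was at 21.6 CPM (18.5 to 25.0) in patch-seq Dock5 and 73.9 CPM (71.6 to 76.2) in patch-seq Lsp1 cells, a log2 fold of -1.41, and of -1.18 without the deepest Lsp1 cell. Adcy5 was at 2.33 and 36.4 CPM (-1.91, and -1.52 without that cell). Adcy9, a widely expressed cyclase, owed 91.6% of its Lsp1 counts to 1 cell, and its log2 fold went from -1.47 to -0.13 without the deepest cell. Pde8b was at 104 CPM (97.2 to 111) in Dock5 and 29.5 CPM (28.1 to 31.0) in Lsp1 cells (1.53). Plch1, a phospholipase C related to Plch2, was at 26.7 and 6.13 CPM (1.19, and 0.84 without the highest cell of each group), and Adcy3 at 61.7 and 29.5 (0.86). As the mean over single cells the Adcy3 value was 0.24, and 40.0% of Dock5 and 66.7% of Lsp1 cells had an Adcy3 count.

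Of the 4 genes past 2-fold at both sorted ages, Prkca alone was past 2-fold in the same direction in patch-seq, and as the mean over single cells its value there was -0.60. Dgkg was at 25.6 CPM in Dock5 and 26.3 in Lsp1 cells (-0.03), yet 77.0% of the Dock5 counts came from 1 cell, and the log2 fold without the highest cell of each group was -1.09. By cells, 20.0% (5.73% to 43.7%) of Dock5 and 59.3% (38.8% to 77.6%) of Lsp1 cells had a Dgkg count, and 17.6% and 48.0% after thinning, which left out 3 and 2 shallower cells. Plcg1 was at 16.4 and 37.3 CPM (-0.84) and Pde1a at 21.8 and 62.3 (-1.19), both on the Lsp1 side. For Pde1a 1 cell held 68.4% of the Lsp1 counts, and the fold without the deepest cell was -0.26. Among the other genes named for the sorted cells, Pde4b had a log2 fold of 0.17, Pde4a of -1.05, Pde4d of -0.77, Dgkq of -0.68, Dgke of -0.55, Pde9a of 0.07 and Pde6d of 0.35. For Pde4d 1 cell held 75.0% of the Dock5 and 64.4% of the Lsp1 counts, and for Dgke 53.3% of the Lsp1 counts. Dgke, Pde9a and Pde6d had the other sign as the mean over single cells (0.26, -0.75 and -0.46). Pde5a had a count in 0 of 20 Dock5 cells, an exact interval that reaches 16.8%, and was at 3.42 CPM in Lsp1 cells, 92.3% of it from 1 cell. Plch2, which at P30 lay toward Lsp1 cells, was in 30.0% (11.9% to 54.3%) of Dock5 and 88.9% (70.8% to 97.6%) of Lsp1 patch-seq cells, and in 29.4% and 68.0% after thinning.

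Markers of other cell types moved with the patch-seq groups. Summed over 4 oligodendrocyte markers, the level was 1261 CPM in Dock5 cells, 6252 in Lsp1 cells and 2837 in Lsp1 cells without the deepest, with 3, 4 and 3 of the markers at 20 CPM or more. Glutamatergic markers (5 genes) summed to 71.0, 427 and 222 CPM, microglial markers (5 genes) to 119, 255 and 312, and astrocyte markers (5 genes) to 307, 405 and 228. Markers of interneurons from the medial ganglionic eminence (3 genes) summed to 62.1, 367 and 357 CPM in the same order. The part of this in the patch-seq differences was not tested. In the sorted P15 NGCs the oligodendrocyte markers summed to 42.6 CPM in Dock5 and 5.58 in Lsp1 cells, and the microglial ones to 0 and 0.103.

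The wider pathway was read from a list of 46 genes of protein kinase A, cyclic AMP-regulated exchange factors (EPAC), G protein alpha subunits, guanylyl cyclases, protein kinase G, IP3 receptors, diacylglycerol effectors and lipases, phosphoinositide supply and nuclear targets. Between NGCs and Vip cells, 5 of 36 listed genes at P15 and 5 of 35 at P30 were at least 2-fold higher in NGCs, against 7.97% and 11.9% of all genes, and 8 and 4 in Vip cells, against 9.22% and 10.6%. Itpr1, the main neuronal IP3 receptor, was at 497 CPM in NGCs and 11.9 in Vip cells at P15, and at 416 and 36.0 at P30, the largest folds of the list toward NGCs (4.53 and 3.21). Rapgef4, which encodes EPAC2, had log2 folds of 2.03 and 1.08, and Chn2, a diacylglycerol-binding Rac GTPase activator, of 1.30 and 1.52. Toward Vip cells lay Chn1, the relative of Chn2 (-1.24 and -1.52), Gnaz, an inhibitory G protein subunit (-1.20 and -2.06), and Gucy1a3, a subunit of the nitric oxide-sensitive guanylyl cyclase (-1.15 and -1.58). Vip cells thus had higher levels of both a cyclic GMP-forming subunit and the cyclic GMP phosphodiesterase Pde5a.

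Other Lamp5 cells lay with NGCs for Itpr1 (2.72 and 1.81 over Vip) and Chn2 (1.42 and 2.13). They also had more Pip5k1b, a kinase of phosphoinositide supply (1.62 and 1.55), and Rasgrp1, a diacylglycerol-activated Ras exchange factor (1.42 and 2.13). Gucy1a3 (-2.38 and -1.59) and Rapgef3, which encodes EPAC1 (-1.91 and -2.32), lay toward Vip cells. In this comparison 5 of 37 listed genes at P15 and 5 of 36 at P30 were past 2-fold toward other Lamp5 cells, against 10.2% and 15.8% of all genes, and 3 and 7 toward Vip cells, against 15.4% and 17.8%. Between Dock5 and Lsp1 cells, 3 of 37 and 2 of 34 were past 2-fold toward Dock5 cells at the respective ages, against 9.16% and 9.31% of all genes, and 2 and 1 toward Lsp1 cells, against 8.93% and 8.38%. Chn2 was the one past it at both, at 27.0 CPM in Dock5 and 87.0 in Lsp1 cells at P15 and at 33.9 and 79.5 at P30. In patch-seq it was at 5.63 and 36.0 CPM, and 3 of 37 listed genes lay past 2-fold toward Dock5 and 8 toward Lsp1 cells, against 8.5% and 9.77% of all genes.

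The last comparison set the E14.5 tdTOM+ POA cells beside P30 NGCs, over 11449 genes present in the E14.5, P15 and P30 tables. Most of the enzymes were lower at E14.5. Of 34 that reached 20 CPM, 3 were at least 2-fold higher at E14.5 and 24 at P30, against 20.5% and 22.0% of 8067 genes, and their median log2 fold was -1.56, against 0.01 over all genes. The families lay the same way: 4 of 4 adenylyl cyclases, 8 of 14 phosphodiesterases, 6 of 6 diacylglycerol kinases, 2 of 5 phospholipases C and 4 of 5 protein kinases C were at least 2-fold higher in P30 NGCs.

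Adcy1 was at 14.6 CPM at E14.5 and 1928 in P30 NGCs, where 9.33% and 100% of cells had a count. It was already at 1942 CPM in P15 NGCs on the same genes. Prkce, a calcium-independent protein kinase C, was at 7.52 CPM at E14.5, 507 at P15 and 642 at P30. Plcb1, which G protein Gq subunits activate, was at 21.3, 712 and 662 CPM. Prkcb was at 26.0, 752 and 643, and Pde4b at 13.4, 221 and 285. Their P15 and P30 levels lay close together and far above the embryonic ones. Log2 folds of E14.5 over P30 NGCs were -6.30 for Adcy1, -5.22 for Prkce, -4.43 for Plcb1, -4.18 for Prkcb and -3.66 for Pde4b.

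**Figure D5:**
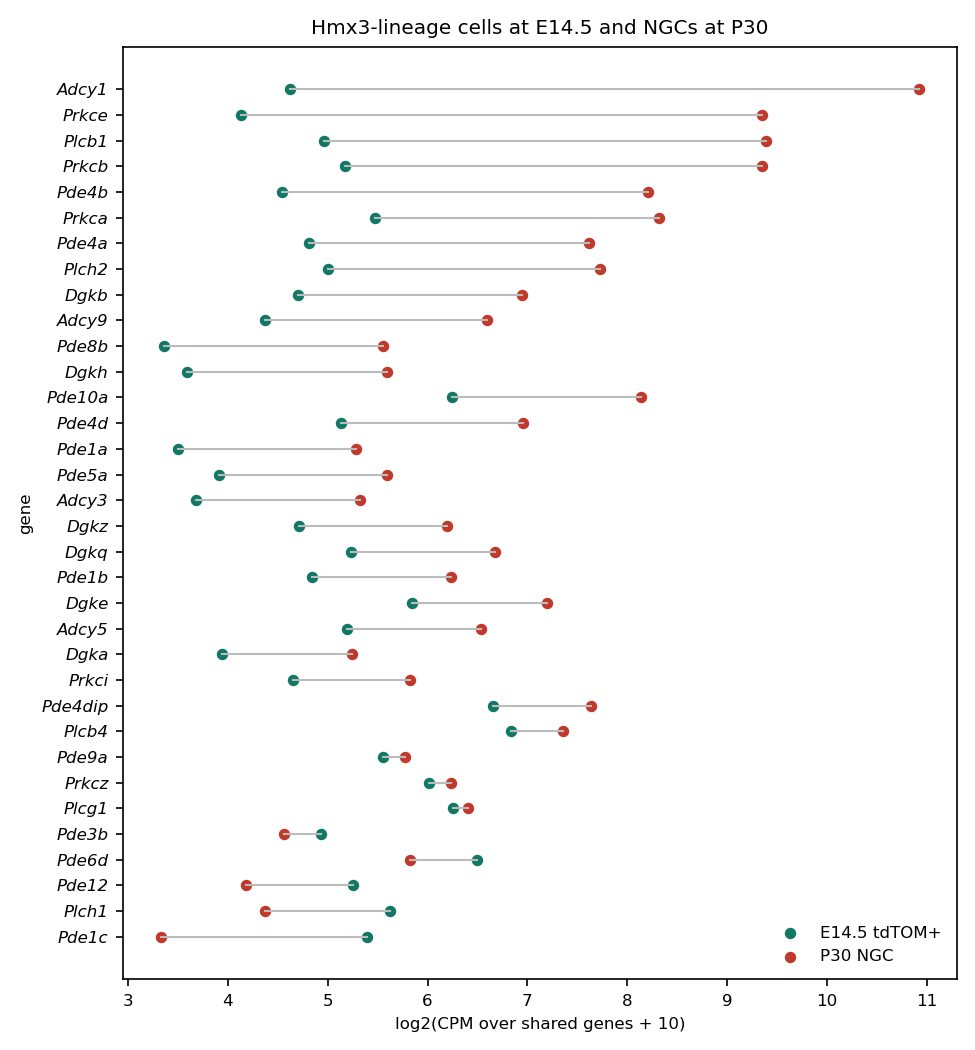
Level as the log2 of CPM over the shared genes plus 10 (x axis) of the 34 enzymes that reached 20 CPM, in E14.5 tdTOM+ cells (green) and P30 NGCs (red), joined by a line for each gene and ordered by the difference. The red point lies right of the green one in 29 genes, most widely in Adcy1, and left of it in 5 (Pde3b, Pde6d, Pde12, Plch1 and Pde1c).

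Few enzymes lay toward E14.5. Pde1c, a calcium- and calmodulin-activated phosphodiesterase, was at 32.2 CPM at E14.5, in 22.2% of cells, and had 2 counts over 111 P30 NGCs. Its log2 fold was 2.06 with 10 CPM added and 0.40 with 100 CPM added. The ratio without added CPM was 385, with an interval of 107 to 3180.3 that covers counting error alone. Pde1c was not particular to E14.5 cells. On the same genes P30 Vip cells were at 116 CPM, in 21.3% of cells, with 47.6% of the counts from 1 cell. P15 Vip cells were at 18.0 CPM, in 22.2% of cells. Plch1 was at 39.2 and 10.8 CPM (1.24), and Pde12 at 28.1 and 8.15 (1.07). Pde6d (0.67) and Pde3b, an enzyme best known from fat and liver (0.37), were under 2-fold. Plcg1 was at 66.4 and 74.9 CPM, and Prkcz at 54.9 and 65.3; both were chosen for mention after their values were seen. Tissue, dissection, dissociation enzyme and age differ together in this comparison and cannot be told apart. The P30 cells were also picked by their Dock5 or Lsp1 label, whereas the E14.5 tdTOM+ cells were taken without such a label. The E14.5 cells carried the interneuron gene Gad2 at 536 CPM and the lineage gene Hmx3 at 29.8 CPM, and the proliferation gene Mki67 had a count in 12.2% of cells, while Lamp5 was at 0.201, Ndnf at 0.143 and Vip at 0.0583 CPM. Of 46 pathway genes, 34 reached 20 CPM, of which 5 were at least 2-fold higher at E14.5 and 16 in P30 NGCs, against 20.5% and 22.0% of all genes.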

How the data were processed

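Single-cell RNA-seq of sorted mouse cells (SMARTer chemistry on microfluidic chips, 5-base molecular identifiers) and of patched neurons was analysed. The authors deposited whole-number counts per gene and cell. The submitters' processing notes name STAR, UMI-tools and the mm10 build, without versions. The authors removed doublets by imaging and cells under set limits, 100000 UMIs among them, although 7 of the 325 cells of the 8 main groups hold fewer counts. Cell type labels are the authors' own; cells without a label used here were left out, and 0 value columns lacked a sample.

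The cells of each group were added up gene by gene and divided by the group's total (CPM), which makes a level depend on all other genes of a table. Tables differ in the genes they list, so ages were compared over shared genes alone. With 1 sample per group no test was run and no p-value is given. Folds were log2 ratios after adding 10 CPM, counted where 1 group reached 20 CPM and the absolute log2 fold was at least 1. Patch-seq carries no statement on molecular identifiers in the labels, so its counts may be reads, and intervals cover counting error only. Genes in the text are those whose weaker age still had the widest fold in each direction, with 1 sign at both ages, up to 6 per direction for Dock5 against Lsp1 and for NGC against Vip and up to 3 for other Lamp5 against Vip, the 3 per direction with the largest patch-seq folds, and up to 5 per direction at E14.5; any other is named as chosen after its values were seen or stands in a count. The members and lists were chosen with earlier results of these data known. Alternatives changed the added CPM, the CPM minimum, the scaling, the depth of cells, plate rows, sorts and the cells included. Tables were handled with pandas 2.3.3 and numpy 2.4.6 in Python 3.11.15, intervals came from scipy 1.17.1, figures from matplotlib 3.10.9, and scripts were tested on simulated data. Gene positions are from GENCODE M21 and promoters from RefSeq. A result that needs a withheld item is not reported here.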

Additional observations from a re-analysis of the deposited data

Results flagged for a closer look

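Some enzymes lay on opposite sides between collections in the Dock5 and Lsp1 comparison; whether the collections differ was not tested. The log2 fold of Pde1a was 1.01 at P15 and 2.11 at P30, toward Dock5 cells, and -1.19 in patch-seq, toward Lsp1 cells. Without the deepest patch-seq Lsp1 cell its value there was -0.26, and without the highest cell of each group the P15 value was 0.26. The log2 fold of Pde8b was 1.53 in patch-seq, toward Dock5 cells, 0.21 at P15, under 2-fold, and -1.99 at P30, toward Lsp1 cells. Depth of counts, age range, cortical layers sampled and cell collection differ together between the collections and cannot be told apart.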

How the results depend on the processing

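Counts of enzymes past 2-fold moved by more than 1.5 times under these settings, for which the shares over all genes were not computed. With 100 CPM added in place of 10, the Dock5 and Lsp1 counts were 0 at P15, 2 at P30 and 0 in patch-seq, the NGC and Vip counts 3 and 4 at P15 and P30, the other Lamp5 and Vip counts 4 and 2, and the E14.5 count 9. With a minimum of 50 CPM they were 6 for Dock5 and Lsp1 at P15, 6 in patch-seq, 5 for NGC and Vip at P15 and 17 at E14.5. The P15 Dock5 and Lsp1 count was 6 without the largest cell of each gene and 7 with both sorts pooled; the patch-seq count was 6 with the mean over cells and 6 without the deepest Lsp1 cell. Plate rows 1 to 20 alone gave 18 for Dock5 and Lsp1 at P30 and 16 for NGC and Vip at P15. Of 843 alternative values of 87 log2 folds, 816 kept their sign. Of 485 alternative values of the 50 folds past 1, 83 were under 1 and 3 changed sign: Pde1a and Pde9a at P15 in plate rows 21 to 40 (-1.21 and -0.45) and Pde1a in patch-seq with the mean over cells (0.0281). In 16 of the 50, every alternative stayed past 1. Adcy1 in NGC over Vip ran from 1.46 to 2.10 at P15 and from 1.41 to 1.86 at P30, and Prkca in Dock5 over Lsp1 from -1.62 to -0.89 and from -1.48 to -0.38. The cause of these shifts was not tested. No paired analysis was possible because no test was run and no label pairs cells across groups. Leaving out cells under 100000 counts or the deepest patch-seq cell was chosen after seeing the data.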
